A study of Mus musculus with 9 samples.

Results

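Matrix metalloproteinases (MMPs), ADAMTS proteases and tissue inhibitors of metalloproteinases (TIMPs) were followed through bulk RNA-Seq of the mouse iris. The members were all listed genes with a symbol of the form Mmp, Adamts or Timp1 to Timp4 followed by their number. This gave 45 of 18349 genes: 22 MMPs, 19 ADAMTS genes and 4 TIMPs. Of these, 38 passed the filter on low counts and were tested, and 7 did not (Mmp1b, Mmp7, Mmp10, Mmp20, Mmp21, Adamts13 and Timp4).

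The study asked what newly formed iris lymphatic vessels do after a chemical burn of the cornea. The 9 libraries formed 3 groups of 3, and each library pooled 3 irises of like genotype. Sham VEGFR3fl/fl mice received PBS on the cornea at 6 weeks of age, and injured VEGFR3fl/fl and injured VEGFR3iLECko mice received 0.5 µL of 1 M sodium hydroxide for 60 seconds. The labels give the genotype of both VEGFR3fl/fl groups as WT. For the 3 VEGFR3iLECko libraries their genotype entries name depletion of Vegfr3, Vegfr4 and Vegfr5, whereas their titles and descriptions name VEGFR3 for all 3, and these were followed here. The VEGFR3iLECko mice carried the same floxed VEGFR3 alleles together with Prox1-CreERT2, a tamoxifen-activated recombinase driven by a gene of lymphatic endothelial cells that other Prox1-expressing cells can also use. Per the labels, tamoxifen was given at 80 mg/kg on days 13 to 17 after injury. Irises were collected at 10 weeks of age.

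MMPs are zinc-dependent enzymes that cut collagens, elastin and other proteins of the extracellular matrix, and most are made as inactive precursors that must be cleaved. ADAMTS enzymes are secreted relatives that cleave proteoglycans, process procollagens or bind fibrillin microfibrils. TIMPs bind the active site of these proteases and block it, and Timp3 also inhibits several ADAMTS enzymes. In a wounded tissue the balance between proteases and inhibitors is set by transcription, by precursor activation and by inhibition. RNA levels report on transcripts only.

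Libraries held 16617187 to 18306359 estimated counts. Levels are given as CPM, counts scaled to a common library total, on the TMM scale, which corrects for differences in library composition. Calls were made with edgeR's quasi-likelihood test at a Benjamini-Hochberg adjusted p under 0.05 over 15010 genes together with a change of more than 1.5-fold. Log2 fold changes are given ± SE. The labelled tissue carried its pigment cell markers, whose summed level was 27246 to 29093 CPM in Sham, 3325 to 5739 CPM in injured VEGFR3fl/fl and 4975 to 7010 CPM in injured VEGFR3iLECko libraries. Flt4, which encodes VEGFR3, averaged 14.6, 20.1 and 25.4 CPM in the same order, and it was not lower in the whole-iris RNA of the knockout group (log2 fold change 0.34 ± 0.15, edgeR adjusted p = 0.200), so these libraries do not check the deletion. Summed Y-linked transcripts were 51.1 to 167 CPM in Sham, 0.804 to 151 CPM in injured VEGFR3fl/fl and 0.736 to 1.11 CPM in injured VEGFR3iLECko libraries, so the sex of the pooled mice cannot be told apart from genotype in the last group.

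Alkali injury moved the protease pool far more than the inhibitor pool. Approximate TPM values, in which counts are divided by the length of the longest annotated transcript and scaled to a fixed total per library, allow different genes to be added. The 22 MMPs summed to 481, 494 and 466 TPM in the Sham libraries, to 2636, 2030.4 and 2505 TPM in the injured VEGFR3fl/fl libraries and to 2943, 2256 and 3590.2 TPM in the injured VEGFR3iLECko libraries. The 4 TIMPs summed to 1826 ± 141 TPM in Sham, 2096 ± 211 TPM in injured VEGFR3fl/fl and 2436 ± 85.0 TPM in injured VEGFR3iLECko libraries (SD, n = 3). The Sham and injured VEGFR3fl/fl ranges did not overlap for the MMP sum and did overlap for the TIMP sum.

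The ratio of summed MMP to summed TIMP transcripts, which does not depend on the scaling of a library, was 0.264 ± 0.0274 in Sham, 1.15 ± 0.226 in injured VEGFR3fl/fl and 1.20 ± 0.243 in injured VEGFR3iLECko irises (SD, n = 3). Every injured library lay above every Sham library, and both injured groups overlapped. With the median instead of the longest transcript length the ratios were 0.476, 1.99 and 1.93, so the level of this ratio depends on the length chosen and the order of Sham against injured does not. The 19 ADAMTS genes summed to 416 ± 41.8, 357 ± 70.8 and 487 ± 29.5 TPM (SD, n = 3), with Sham and injured VEGFR3fl/fl overlapping in the plot of summed levels. With the median transcript length the means were 314, 361 and 435 TPM, so the direction from Sham to injured VEGFR3fl/fl turned with the length chosen. With the longest transcript the injured VEGFR3iLECko libraries lay above all others for both the ADAMTS sum (453 to 508 TPM) and the TIMP sum (2372 to 2532 TPM). With the median length both separations from injured VEGFR3fl/fl were lost, since the first injured VEGFR3iLECko library had 391 TPM of ADAMTS and 1722 TPM of TIMP transcripts and injured VEGFR3fl/fl libraries reached 411 and 1750.3 TPM. These sums carry no test and no TMM scaling.

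**Figure D1:**
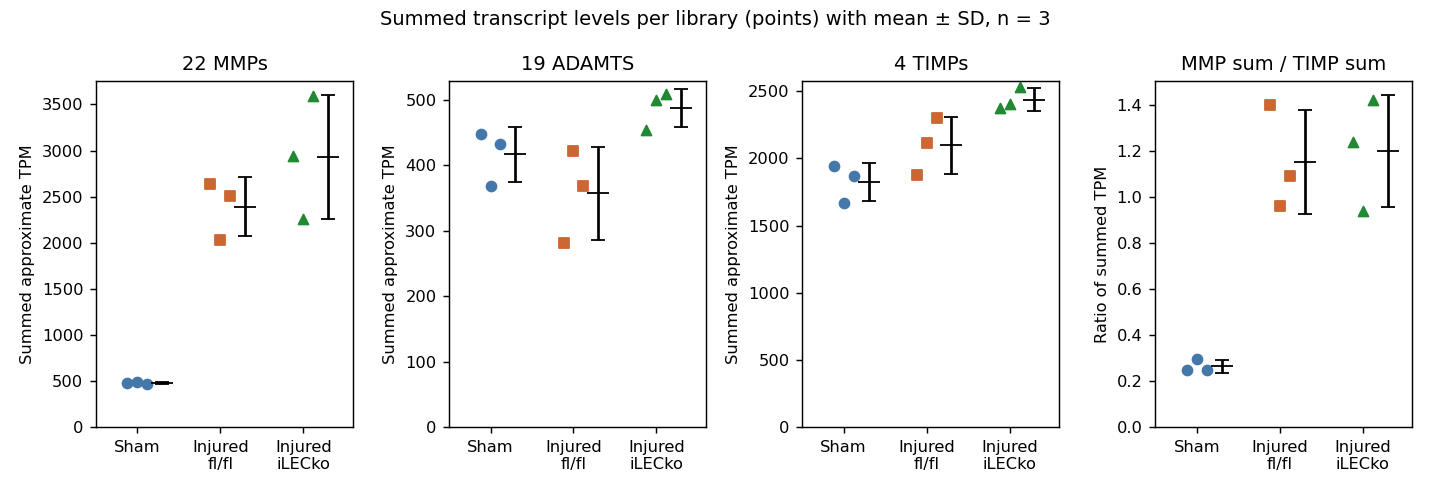
Summed approximate TPM of the 22 MMPs, 19 ADAMTS genes and 4 TIMPs and the ratio of the MMP sum to the TIMP sum, with 1 point per library and the mean ± SD (n = 3) beside the points. The MMP sum and the ratio separate Sham from all injured libraries, whereas the ADAMTS and TIMP sums of Sham and injured VEGFR3fl/fl libraries overlap and those of injured VEGFR3iLECko libraries lie above them, a separation from injured VEGFR3fl/fl that is lost with the median transcript length.

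Of the 38 tested members, 26 were higher and 4 lower in injured VEGFR3fl/fl than in Sham irises, and 8 were not called. Across all 15010 genes 22.1% were called higher and 17.5% lower, 39.7% in all. The median log2 fold change of the tested members was 1.67, beside 0.01 over all genes. The members called higher were 13 of 17 tested MMPs, 11 of 18 tested ADAMTS genes and 2 of 3 tested TIMPs. DESeq2 called 25 higher and 4 lower, beside 36.2% of the genes it tested in either direction, with no adjusted p for Mmp3. The groups did not overlap for 32 of the 38 members, beside 66.3% of all genes.

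**Figure D2:**
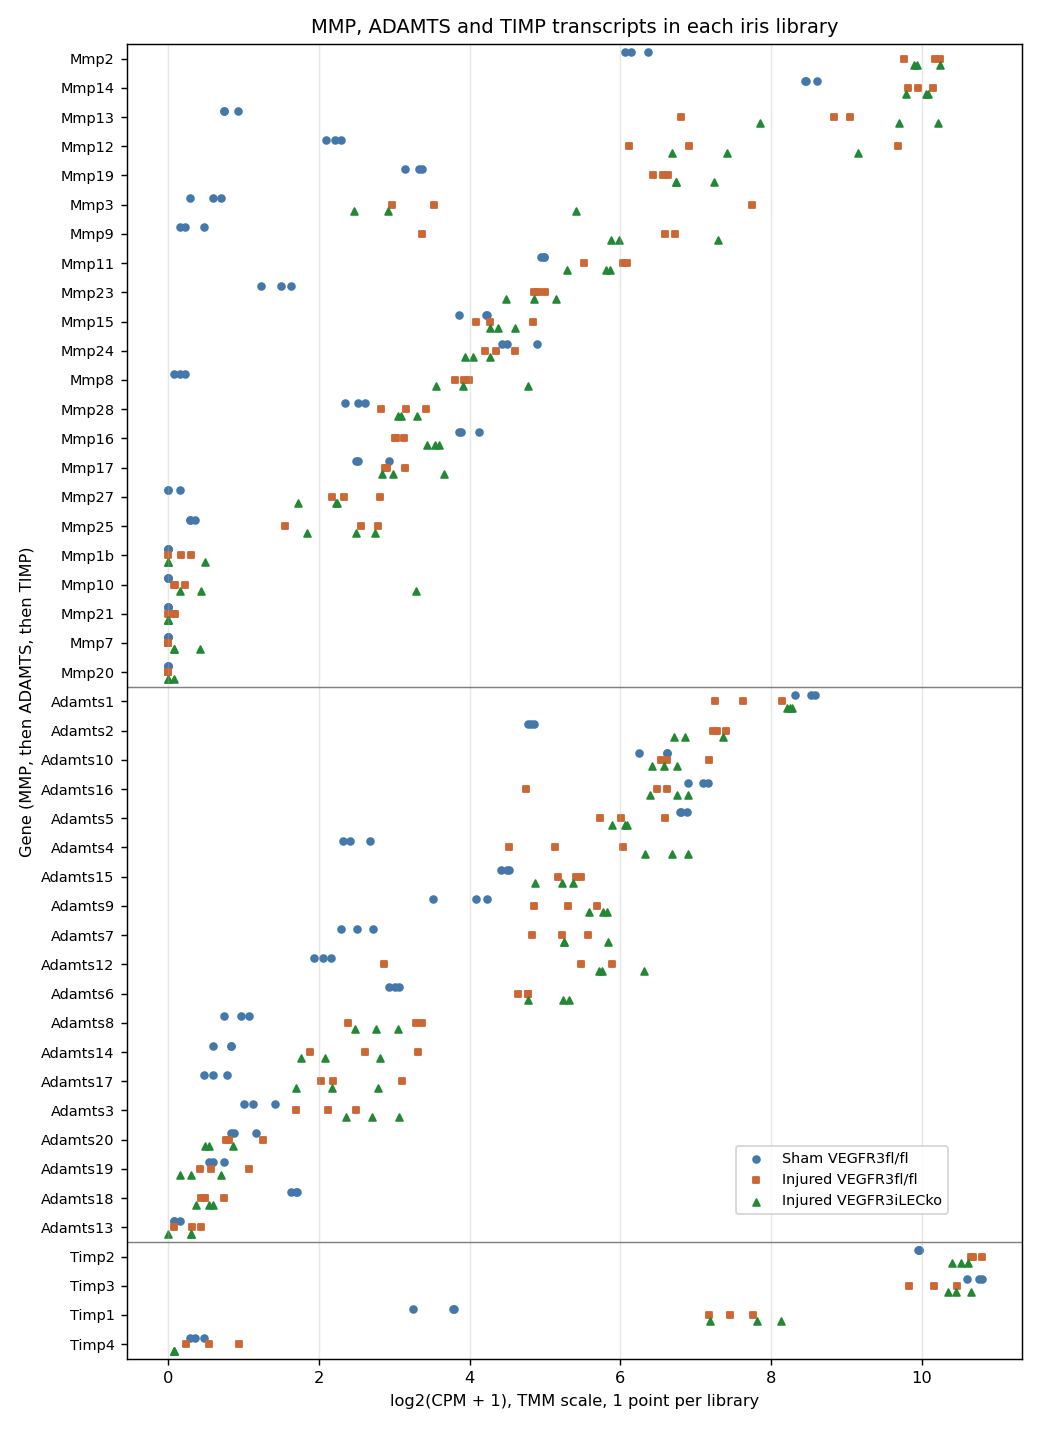
Levels of all 45 members as log2(CPM + 1) on the TMM scale, with 1 point per library in 3 groups of 3. Mmp13, Mmp9, Mmp8 and Mmp27 are near 0 in Sham and well above it in every injured library.

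The collagenases and their neighbours showed the widest range. Mmp13, the main interstitial collagenase of the mouse, had 0.665, 0.904 and 0.676 CPM in the Sham libraries and 527, 111 and 455 CPM in the injured VEGFR3fl/fl libraries. It had the largest fitted change of the tested members, a log2 fold change of 8.92 ± 0.96 (edgeR adjusted p = 4.85e-05). Mmp8, the collagenase stored in neutrophil granules, rose from 1, 3 and 2 counts to 214, 243 and 260 counts. This was a log2 fold change of 6.88 ± 0.49 (edgeR adjusted p = 3.77e-06), a ratio of pooled counts of 125 with a 95% interval of 57.4 to 343 that covers counting error only. Mmp1b was at 0 in Sham and reached at most 7 counts in any library.

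Both gelatinases, which degrade denatured collagen and basement membrane collagen, rose. Mmp2 went from 69.4, 81.4 and 65.7 CPM to 1149, 865 and 1214 CPM, a log2 fold change of 3.90 ± 0.17 (edgeR adjusted p = 2.66e-07). Mmp9 had 3, 2 and 7 counts in Sham and 153, 1790 and 1670 counts in injured VEGFR3fl/fl libraries, a log2 fold change of 8.24 ± 1.24 (edgeR adjusted p = 0.000386). The first injured VEGFR3fl/fl library stood well below the other two for Mmp9 but not for Mmp2.

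Among the stromelysins, Mmp3, which cleaves proteoglycans and can activate other MMP precursors, had 4, 11 and 9 counts in Sham and 3529, 117 and 184 counts in injured VEGFR3fl/fl libraries. Its log2 fold change of 7.40 ± 1.87 (edgeR adjusted p = 0.00742) rested in large part on the first injured library and was 4.26 without it (edgeR adjusted p = 0.0076). Mmp11 rose from 30.4 ± 0.494 to 58.9 ± 12.4 CPM (SD, n = 3), a log2 fold change of 0.95 ± 0.18 (edgeR adjusted p = 0.00159). Mmp12, the macrophage metalloelastase, had 59, 69 and 65 counts in Sham and 13587, 2044 and 1191 counts after injury. The resulting log2 fold change was 6.54 ± 1.18 (edgeR adjusted p = 0.00113) and fell to 4.70 without the first injured library (edgeR adjusted p = 0.000541).

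The membrane-type MMPs, which are anchored at the cell surface, divided. Mmp14, an activator of the Mmp2 precursor, rose from 350, 388 and 350 CPM to 900, 1129 and 992 CPM (log2 fold change 1.47 ± 0.12, edgeR adjusted p = 7.79e-06). Mmp25, found mainly on leukocytes, rose from 4, 4 and 5 counts to 32, 101 and 85 counts (log2 fold change 4.09 ± 0.53, edgeR adjusted p = 0.000152). Mmp16 fell from 13.6, 13.8 and 16.4 CPM to 7.77, 7.02 and 7.12 CPM (log2 fold change -0.997 ± 0.12, edgeR adjusted p = 9.9e-05), with no overlap between the groups. Mmp15, Mmp17 and Mmp24 did not pass the test, with log2 fold changes of 0.34, 0.38 and -0.24.

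Of the remaining MMPs, Mmp23 rose from 1.83, 2.09 and 1.35 CPM to 29.1, 28.0 and 31.1 CPM (log2 fold change 4.06 ± 0.21, edgeR adjusted p = 6.57e-07). Mmp19 rose from 8.73 ± 0.814 to 92.6 ± 6.38 CPM (SD, n = 3; log2 fold change 3.41 ± 0.16, edgeR adjusted p = 3.38e-07). Mmp28, or epilysin, rose from 4.63 ± 0.522 to 7.89 ± 1.82 CPM (SD, n = 3; log2 fold change 0.77 ± 0.20, edgeR adjusted p = 0.00791). Mmp27 had 0, 0 and 2 counts in Sham and 58, 103 and 70 counts after injury, a ratio of pooled counts of 121 with a 95% interval of 33.2 to 1007 for counting error. Mmp20, the enamel protease, and Mmp21 had at most 1 count in any library.

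**Figure D3:**
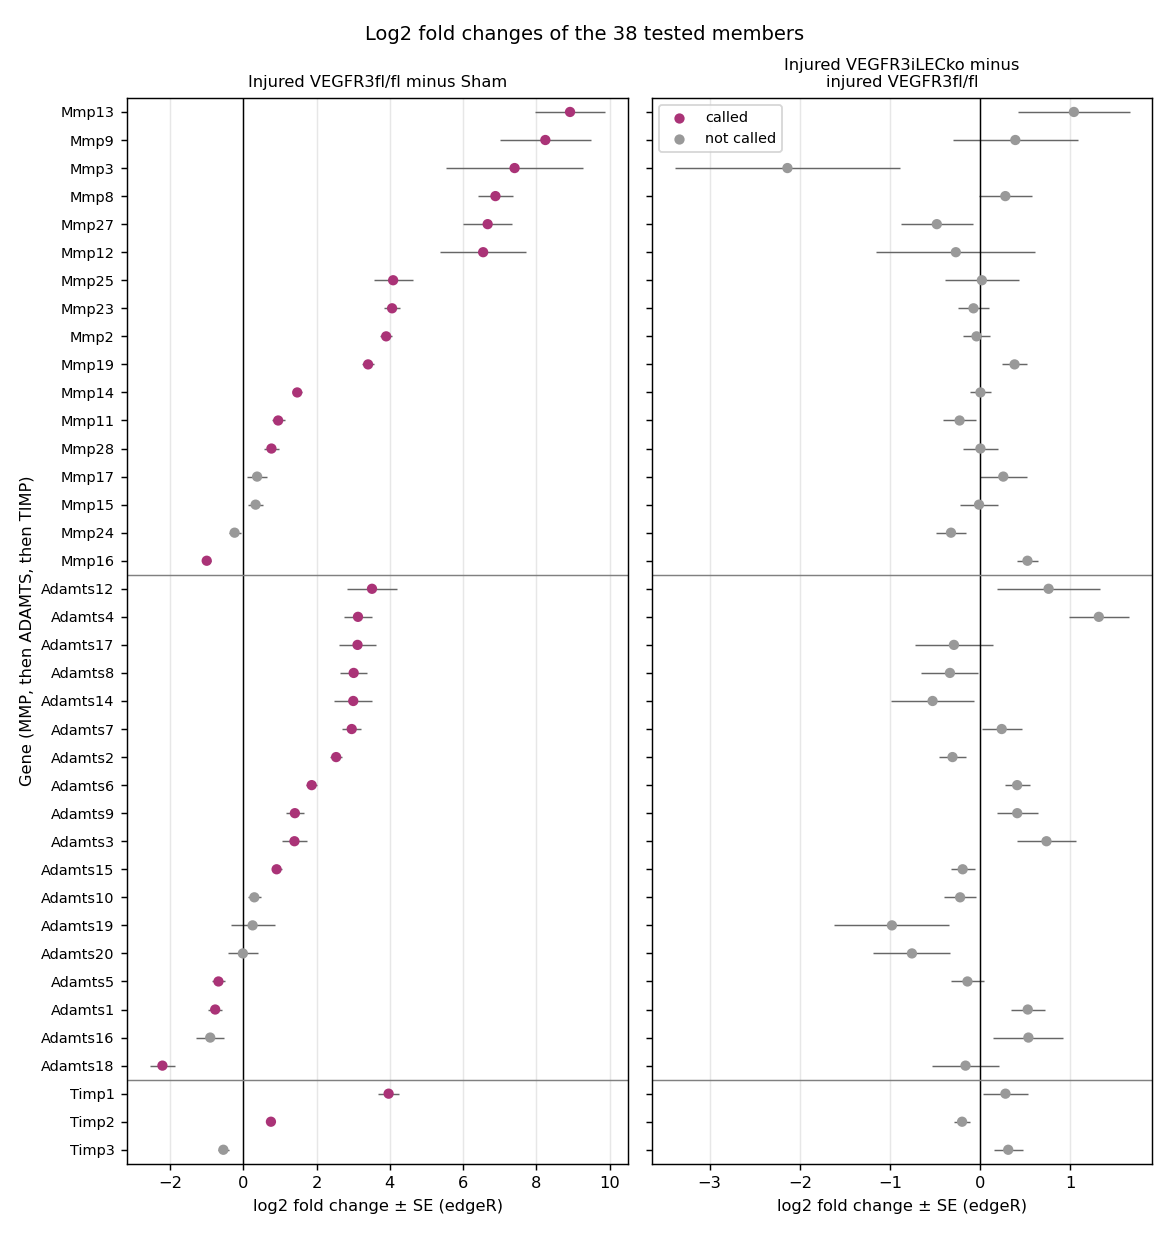
edgeR log2 fold changes ± SE of the 38 tested members for injured VEGFR3fl/fl against Sham on the left and injured VEGFR3iLECko against injured VEGFR3fl/fl on the right, on separate x axes. On the left 30 members are called, 26 of them higher, and on the right none is called.

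The 11 ADAMTS genes that rose came from several functional classes of the family. Adamts2, Adamts3 and Adamts14, which remove the N-terminal propeptides of fibrillar procollagens, all rose, by log2 fold changes of 2.53 ± 0.16, 1.40 ± 0.34 and 3.00 ± 0.52. Adamts7 and Adamts12, which cleave cartilage oligomeric matrix protein, rose by 2.96 ± 0.25 and 3.51 ± 0.68. Adamts12 had 3.49, 2.82 and 3.15 CPM in Sham and 6.31, 43.7 and 58.2 CPM in injured VEGFR3fl/fl libraries, with the first injured library lowest.

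The 7 tested proteoglycanases, which cleave aggrecan and versican, moved in both directions. Adamts4, Adamts8, Adamts9 and Adamts15 rose by log2 fold changes of 3.13 ± 0.39, 3.01 ± 0.36, 1.41 ± 0.24 and 0.91 ± 0.14. Adamts1 and Adamts5, the more abundant of the class in Sham irises, fell. Adamts1 went from 369, 318 and 384 CPM to 152, 282 and 197 CPM (log2 fold change -0.77 ± 0.19, edgeR adjusted p = 0.00698), and without the first injured library its change of -0.58 no longer passed 1.5-fold. Adamts5 went from 111, 109 and 117 CPM to 95.7, 52.1 and 63.3 CPM (log2 fold change -0.68 ± 0.19, edgeR adjusted p = 0.0116), and without the second injured library its change of -0.50 no longer passed 1.5-fold. Adamts20 did not pass the test.

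Of the fibrillin-binding members Adamts6 rose (log2 fold change 1.87 ± 0.15, edgeR adjusted p = 7.69e-06), whereas Adamts10 was at 90.2 ± 12.9 and 111 ± 28.6 CPM (SD, n = 3). Adamts17 rose from 13, 7 and 9 counts to 51, 61 and 132 counts (log2 fold change 3.12 ± 0.51, edgeR adjusted p = 0.000606). Adamts18 fell from 41, 37 and 40 counts to 11, 6 and 7 counts, the largest fall of the tested members (log2 fold change -2.21 ± 0.33, edgeR adjusted p = 0.000394). Adamts16, among the most abundant ADAMTS transcripts of the Sham iris, had 136, 142 and 118 CPM in Sham and 26.0, 88.9 and 96.9 CPM after injury. All injured libraries of Adamts16 were below Sham, but the change did not pass the test (log2 fold change -0.90 ± 0.39, edgeR adjusted p = 0.0717), and it did under 4 alternatives: at -1.05 with scaling by library size alone (edgeR adjusted p = 0.049), at -1.13 with Y-linked level as a covariate (0.0337), at -1.05 with the replicate block (0.0379) and at -1.20 without the third injured library (0.0403). Across all alternatives the log2 fold change of Adamts16 ran from -1.20 to -0.50, the smaller fall under 1.5-fold. Adamts13, which cleaves von Willebrand factor, had at most 6 counts in any library.

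The TIMPs did not move together. Timp1, the inducible TIMP, had 8.53, 12.9 and 12.7 CPM in Sham, 144, 216 and 174 CPM in injured VEGFR3fl/fl and 223, 145 and 280.4 CPM in injured VEGFR3iLECko libraries. It rose with injury by a log2 fold change of 3.97 ± 0.29 (edgeR adjusted p = 4.07e-06). Timp2, which together with Mmp14 takes part in activating the Mmp2 precursor, had 992, 987 and 999.9 CPM in Sham, 1774, 1611 and 1642 CPM in injured VEGFR3fl/fl and 1558, 1465 and 1352 CPM in injured VEGFR3iLECko libraries. Injury raised it by a log2 fold change of 0.76 ± 0.09 (edgeR adjusted p = 7.85e-05), and with scaling by library size alone the change was 0.58, under 1.5-fold.

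Timp3, which binds to the extracellular matrix, had 1775, 1546 and 1724 CPM in Sham, 1140.0, 911 and 1412 CPM in injured VEGFR3fl/fl and 1295, 1604 and 1397 CPM in injured VEGFR3iLECko libraries. Its log2 fold change of -0.54 ± 0.16 with injury had an edgeR adjusted p of 0.0153 but did not reach 1.5-fold. It passed that limit under 4 alternatives: at -0.72 with scaling by library size alone, at -0.66 with Y-linked level as a covariate, at -0.60 without the second Sham library and at -0.71 without the third injured VEGFR3fl/fl library. Across all alternatives the Timp3 change ran from -0.72 to -0.40, and its edgeR or DESeq2 adjusted p from 0.00147 to 0.052. Timp4 had 5, 4 and 7 counts in Sham, 15, 3 and 8 counts in injured VEGFR3fl/fl and 1 count in each injured VEGFR3iLECko library, and it was not tested.

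The make-up of both pools therefore shifted in each injured library. In approximate TPM, Timp3 made up 57.6%, 53.8% and 56.2% of the TIMP sum in the Sham libraries and 27.3%, 22.1% and 31.9% in the injured VEGFR3fl/fl libraries. Timp1 made up 1.48%, 2.40% and 2.22% of it in Sham and 18.5%, 28.0% and 21.0% in injured VEGFR3fl/fl libraries. Neither share overlapped between these groups.

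In the MMP pool, Mmp14 made up 66.8%, 66.7% and 66.8% in Sham and 22.4%, 41.7% and 29.9% in injured VEGFR3fl/fl libraries, while Mmp2 went from 13.9%, 14.7% and 13.2% to 30.1%, 33.6% and 38.5%. Mmp13 made up 15.9%, 4.95% and 16.6% of the pool in injured VEGFR3fl/fl libraries and 26.3%, 10.2% and 32.1% in injured VEGFR3iLECko libraries. These shares depend on the transcript length used: with the median length Mmp13 made up 5.88%, 1.49% and 5.63% in injured VEGFR3fl/fl and 9.63%, 3.33% and 12.5% in injured VEGFR3iLECko libraries. In the plot of pool make-up, the MMP shares of the Sham libraries were nearly alike, and those of the injured libraries differed from each other in Mmp13, Mmp14 and Mmp2 and also in Mmp12 and Mmp3. Among ADAMTS transcripts, Adamts1 was the most abundant in all 3 groups, at 50.4% of the summed group means in Sham, 28.4% in injured VEGFR3fl/fl and 33.0% in injured VEGFR3iLECko irises.

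**Figure D4:**
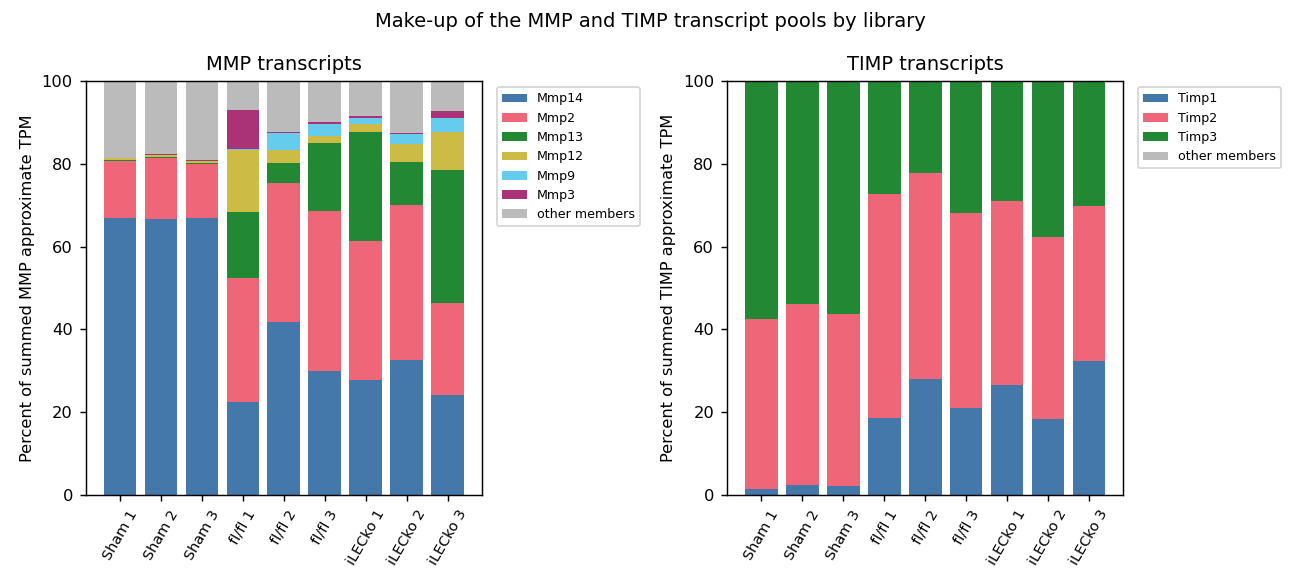
Share of each named gene in the summed approximate TPM of the MMPs (left) and TIMPs (right), with 1 bar per library and the remaining members in grey. Mmp14 and Timp3 lead the Sham bars, and Mmp2, Mmp13 and Timp1 take larger shares in every injured bar.

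Injured libraries varied more in these genes than in others. Over members with a group mean of at least 1 CPM, the median coefficient of variation was 26.1% in injured VEGFR3fl/fl libraries (35 members), beside 11.5% over all 14084 genes at that level. The corresponding values were 21.3% and 9.01% in injured VEGFR3iLECko libraries and 10.5% and 7.40% in Sham libraries. The first injured VEGFR3fl/fl library was the lowest of its group for 19 of the 38 tested members and the highest for 12 of them, among the latter Mmp13, Mmp12 and Mmp3.

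Summed markers of several cell types also differed between groups and between libraries of a group. Macrophage markers (8 genes, all tested, all called higher with injury) summed to 438 to 456 CPM in Sham, 12097 to 20594 CPM in injured VEGFR3fl/fl and 7933 to 9762 CPM in injured VEGFR3iLECko libraries. The highest of these sums was in the first injured VEGFR3fl/fl library, where Mmp12 was also highest, and Lyz2 alone gave 17618 CPM of it. Adgre1, Csf1r, Itgam and Mrc1 were each lowest of their group in that library, at 132, 311, 82.1 and 98.8 CPM, so the macrophage list did not move as a whole with Mmp12. Neutrophil markers (8 genes, 5 tested, 4 called higher) summed to 4.29 to 5.63 CPM in Sham, 158 to 494 CPM in injured VEGFR3fl/fl and 358 to 1226 CPM in injured VEGFR3iLECko libraries. The lowest injured sum was in the library where Mmp9 was lowest, and the highest was in the third injured VEGFR3iLECko library, where Mmp9 and Mmp8 were highest. Mmp8 differed little among the injured VEGFR3fl/fl libraries (13.0, 14.2 and 14.9 CPM), whose neutrophil sums were 158, 411 and 494 CPM. Its lowest injured level, 10.7 CPM, was in the first injured VEGFR3iLECko library. Among injured VEGFR3fl/fl libraries Retnlg was lowest in the third (4.59 CPM) and Camp highest in the first (0.910 CPM). The neutrophil granule markers Mpo and Elane had at most 2 counts in any library, and Ly6g was at 0 in Sham and reached 86 counts in the third injured VEGFR3iLECko library.

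Fibroblast markers (6 genes, 4 called higher) summed to 3799 to 4366 CPM in Sham, 15501 to 22499.6 CPM in injured VEGFR3fl/fl and 16406 to 20721 CPM in injured VEGFR3iLECko libraries. Col1a1, Col1a2, Col3a1 and Lum lay above Sham in every injured library, whereas Dcn and Pdgfra did not. Dcn had 2086, 2439 and 2169 CPM in Sham, 4818, 1027 and 1899 CPM in injured VEGFR3fl/fl and 1162, 1310 and 1010 CPM in injured VEGFR3iLECko libraries. Pdgfra had 168, 182 and 178 CPM in Sham, 264, 173 and 152 CPM in injured VEGFR3fl/fl and 162, 211 and 269 CPM in injured VEGFR3iLECko libraries. In bulk tissue, more cells of a type and more RNA per cell cannot be told apart, and the part of these cell types in the protease changes was not tested. Of the 4 ciliary body markers only Slc4a4 was called lower with injury, from 172 to 254 CPM in Sham to 30.6 to 47.5 CPM in injured VEGFR3fl/fl libraries. Cacna1e was at 1.07 to 1.72 and 1.26 to 2.003 CPM, Opcml at 3.21 to 3.38 and 2.69 to 2.99 CPM, and Atp6v1c2 reached at most 1.64 CPM in any library. Smooth muscle markers (5 genes, 4 called lower) summed to 7209 to 9403 CPM in Sham, 1457 to 3056 CPM in injured VEGFR3fl/fl and 2159 to 3523 CPM in injured VEGFR3iLECko libraries. The part of pigment cells, smooth muscle and ciliary body in the fall of Adamts1, Adamts5, Adamts18 and Mmp16 was not tested.

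A cluster of MMP genes lies on chromosome 9, and 9 of them are members here. They come in the order Mmp13, Mmp12, Mmp1b, Mmp3, Mmp10, Mmp8, Mmp27, Mmp20 and Mmp7. The cluster lies between positions 7272514 and 7699585 of GRCm38.p6, a span of 427.1 kb. Mmp1a lies between Mmp3 and Mmp10 in the annotation but had no entry under that symbol among the listed genes, so it could not be followed. The RefSeq annotation places the long noncoding RNA Gm31751 over both Mmp8 and Mmp27. Reads from it and from these genes could be confused, depending on the strand use of the counting and on its strand and exons. The strand and exons of Gm31751 were not examined here.

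The cluster held the members with the steepest change and also members that stayed near 0. Mmp13, Mmp12, Mmp3, Mmp8 and Mmp27 were called higher, and all 5 had a log2 fold change above 6 that placed them among the 6 largest of all members, the other being Mmp9 outside the cluster. Mmp1b, Mmp10, Mmp20 and Mmp7 were too low to be tested. Mmp10, the second stromelysin, was at 0 in Sham, had 1, 1 and 3 counts in injured VEGFR3fl/fl and 6, 2 and 152 counts in injured VEGFR3iLECko libraries, so its level in the last group came from a single library. Mmp7 was at 0 in Sham and injured VEGFR3fl/fl and had 1, 1 and 6 counts in injured VEGFR3iLECko libraries, the highest again in the third. With a count of 0, up to 3 counts per library cannot be told from absence.

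**Figure D5:**
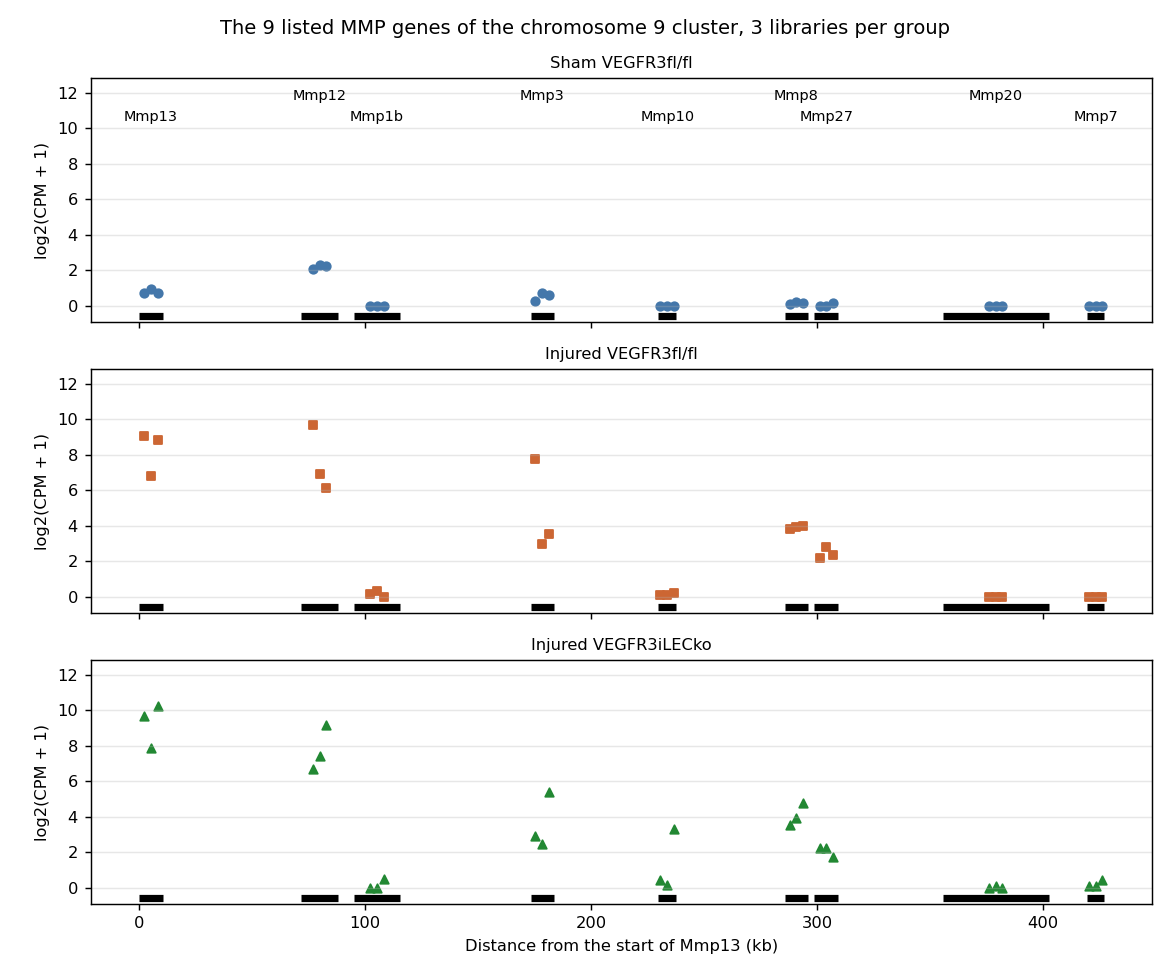
Levels of the 9 listed chromosome 9 MMP genes as log2(CPM + 1), 1 point per library, against distance from the start of Mmp13 in kb, with gene bodies as black bars. Mmp13, Mmp12, Mmp3, Mmp8 and Mmp27 lie above Sham in both injured groups, whereas Mmp1b, Mmp20 and Mmp7 lie near 0 in all libraries and Mmp10 is raised in 1 injured VEGFR3iLECko library.

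Promoter windows of 250 bases before to 50 bases after a start site were read from RefSeq on GRCm38.p6 and were found for 31 of the 45 members. The search covered 3 short motifs on both strands: TGANTCA, the letters bound by AP-1 and its own reverse complement; AGGAAG, an ETS-family (PEA3) core; and TATAAA, the TATA box. The AP-1 letters occurred in 8.97% of the 27025 genes with a window and in 7 of the 31 members. All 7 lie in the chromosome 9 cluster: Mmp13, Mmp12, Mmp1b, Mmp3, Mmp10, Mmp20 and Mmp7, and those for Mmp12 lie before the second of its annotated starts. The ETS-family letters occurred in 38.4% of genes and in 14 of the 31 members, and the TATA letters in 15.7% of genes and in 10 of the 31 members. The motif did not separate the cluster genes that rose from those near 0, since Mmp8 and Mmp27 rose without it in their windows and Mmp7 and Mmp20 held it.

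The 250 bases upstream of the start are shown for Mmp13 and Mmp3, which rose and hold the AP-1 letters before the start shown, for Mmp10, which was raised in a single library, for Mmp7, which stayed near 0, and for Mmp8, which rose without them. All are on the plus strand, read 5′ to 3′, and capitals mark the AP-1 letters, which begin 35 bases before the start in Mmp13, 46 bases in Mmp3 and 63 bases in both Mmp10 and Mmp7. A match is a description of the letters and not of binding.
Mmp13, chr9:7272264-7272513: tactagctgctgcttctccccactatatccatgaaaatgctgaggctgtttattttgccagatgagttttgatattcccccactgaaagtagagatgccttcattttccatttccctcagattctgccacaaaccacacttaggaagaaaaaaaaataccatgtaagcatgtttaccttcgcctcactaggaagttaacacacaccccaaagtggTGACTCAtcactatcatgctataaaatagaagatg
Mmp3, chr9:7445572-7445821: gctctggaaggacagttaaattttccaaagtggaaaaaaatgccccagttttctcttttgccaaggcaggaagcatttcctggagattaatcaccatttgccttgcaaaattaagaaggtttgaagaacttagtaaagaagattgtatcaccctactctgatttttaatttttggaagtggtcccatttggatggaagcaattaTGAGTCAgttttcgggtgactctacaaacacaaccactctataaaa
Mmp10, chr9:7502092-7502341: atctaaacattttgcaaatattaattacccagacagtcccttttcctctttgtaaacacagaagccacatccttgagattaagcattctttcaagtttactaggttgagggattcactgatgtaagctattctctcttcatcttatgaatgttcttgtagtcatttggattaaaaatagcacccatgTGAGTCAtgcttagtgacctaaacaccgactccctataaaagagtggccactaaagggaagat
Mmp7, chr9:7691840-7692089: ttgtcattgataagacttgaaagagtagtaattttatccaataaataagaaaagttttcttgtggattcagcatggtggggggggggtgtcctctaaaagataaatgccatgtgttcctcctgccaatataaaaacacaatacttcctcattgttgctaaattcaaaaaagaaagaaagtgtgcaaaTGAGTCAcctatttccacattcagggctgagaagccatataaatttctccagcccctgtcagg
Mmp8, chr9:7558179-7558428: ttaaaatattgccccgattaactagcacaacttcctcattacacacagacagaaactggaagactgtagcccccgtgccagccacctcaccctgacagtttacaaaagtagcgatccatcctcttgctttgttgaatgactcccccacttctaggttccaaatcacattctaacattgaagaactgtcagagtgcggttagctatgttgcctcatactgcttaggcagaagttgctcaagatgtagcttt

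Between the injured groups no member was called in either direction by edgeR. Of all 15010 genes 1.04% were called, 0.573% higher and 0.466% lower in injured VEGFR3iLECko irises. At an unadjusted p under 0.05 there were 7 members of 38, a share that can be read against 24.5% of all genes. DESeq2 called 1 member, Adamts4, beside 4.40% of the genes it tested. The groups did not overlap for 5 members, 4 higher and 1 lower, beside 26.7% of all genes. The median log2 fold change was -0.0044 over the members and -0.01 over all genes.

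The 3 members with the smallest unadjusted p were Mmp16, Adamts4 and Adamts6. Mmp16 had 7.77, 7.02 and 7.12 CPM in injured VEGFR3fl/fl and 11.1, 10.6 and 9.84 CPM in injured VEGFR3iLECko libraries, with no overlap. The difference was a log2 fold change of 0.52 ± 0.12 (edgeR adjusted p = 0.0618). All injured VEGFR3iLECko libraries remained below the Sham libraries, which had 13.6 to 16.4 CPM.

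Adamts4 had 21.9, 64.4 and 34.1 CPM in injured VEGFR3fl/fl and 118, 79.3 and 102 CPM in injured VEGFR3iLECko libraries, again with no overlap. Its log2 fold change was 1.32 ± 0.33 (edgeR adjusted p = 0.072). DESeq2 gave 1.32 with an adjusted p of 0.00248, and without the second injured VEGFR3fl/fl library edgeR gave 1.83 (adjusted p = 0.0245). Across the alternatives the adjusted p ran from 0.00248 to 0.415, the highest with Y-linked level as a covariate. Adamts6 had 26.3, 24.0 and 26.5 CPM against 26.3, 36.7 and 39.0 CPM, with overlapping groups (log2 fold change 0.41 ± 0.14, edgeR adjusted p = 0.126).

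Adamts1, which fell with injury, had 152, 282 and 197 CPM in injured VEGFR3fl/fl and 296, 310.1 and 303 CPM in injured VEGFR3iLECko libraries without overlap. The log2 fold change between the injured groups was 0.53 ± 0.19 (edgeR adjusted p = 0.147), and without the second injured VEGFR3fl/fl library it was 0.80 (edgeR adjusted p = 0.0361). Against Sham the injured VEGFR3iLECko group had a log2 fold change of -0.24 ± 0.19 for Adamts1 (edgeR adjusted p = 0.318). That comparison uses the same Sham libraries as the injury comparison.

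The members with the largest change after injury did not pass the test between genotypes. Mmp8 and Mmp27 had log2 fold changes of 0.28 ± 0.29 and -0.48 ± 0.40 there. For Mmp13, Mmp3, Mmp12 and Mmp9 the replicates were too far apart to fix the size of a difference. Mmp13 had 827, 231 and 1189.5 CPM in injured VEGFR3iLECko libraries, a log2 fold change of 1.04 ± 0.62 from injured VEGFR3fl/fl (edgeR adjusted p = 0.318) with limits at 2 SE of -0.20 and 2.28. Mmp3 had 112, 80 and 721 counts, and its log2 fold change of -2.14 ± 1.25 (edgeR adjusted p = 0.312) turned to 1.01 without the first injured VEGFR3fl/fl library (edgeR adjusted p = 0.562). Mmp12 and Mmp9 had log2 fold changes of -0.27 ± 0.88 and 0.39 ± 0.69. Without the first injured VEGFR3fl/fl and the third injured VEGFR3iLECko library, a setting chosen after seeing the data, Mmp9 was called lower at -0.74 (edgeR adjusted p = 0.0426).

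Narrower limits held for the abundant members. Mmp14 differed by a log2 fold change of 0.0035 ± 0.12 with limits at 2 SE of -0.23 and 0.23, and Mmp2 by -0.04 ± 0.15 with limits of -0.35 and 0.27. Timp1 differed by 0.28 ± 0.25, Timp2 by -0.20 ± 0.09 and Timp3 by 0.31 ± 0.16, none with an edgeR adjusted p under 0.05 (0.500, 0.200 and 0.252). The Timp2 groups did not overlap, with 1352 to 1558 CPM in injured VEGFR3iLECko below 1611 to 1774 CPM in injured VEGFR3fl/fl libraries.

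Compared with Sham, injured VEGFR3iLECko irises had 25 members higher and 2 lower, beside 19.7% and 15.0% of all genes. The lower members were Adamts18 (log2 fold change -2.37 ± 0.34, edgeR adjusted p = 0.000344) and Adamts5 (-0.82 ± 0.19, edgeR adjusted p = 0.00507), the latter not called with Y-linked level as a covariate. With that covariate 22 members were higher, and Timp3 was called lower (-0.62, edgeR adjusted p = 0.0486), beside -0.23 without it. Since all injured VEGFR3iLECko libraries had low Y-linked levels, sex and group overlap in that fit. The median log2 fold change was 2.18 over the members and -0.01 over all genes. Timp2 was among those not called (log2 fold change 0.55 ± 0.09, edgeR adjusted p = 0.000642), because it did not reach 1.5-fold.

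Over the 9 libraries, the members whose log2(CPM + 1) was most like that of Timp1 were Mmp14, Mmp8 and Mmp23, with Pearson correlations of 0.995, 0.987 and 0.984. These correlations describe points that fall into Sham and injured sets and share library scaling, and no test was made of them. Adamts18 had the most opposite course, at -0.987.

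Other genes that act with these proteases were counted in fixed lists. Each count with injury can be read against 22.1% of all 15010 genes called higher and 17.5% called lower, and the lists are short. Of 7 tested activators of MMP precursors, 4 were higher and 1 lower with injury. Plaur, the urokinase receptor, rose by a log2 fold change of 5.44 ± 0.19 and Pcsk6, a proprotein convertase, by 1.27 ± 0.21, whereas Bsg, the MMP inducer basigin, fell (-0.61 ± 0.11). Of 4 tested inhibitors outside the TIMP family that are reported here, 2 were higher and none lower, namely Tfpi2 (3.87 ± 0.37) and the protease inhibitor Serpine2 (2.18 ± 0.11). Reck, a membrane-anchored MMP inhibitor, averaged 98.9, 70.2 and 48.3 CPM in Sham, injured VEGFR3fl/fl and injured VEGFR3iLECko irises. It was not called with injury (log2 fold change -0.49 ± 0.24, edgeR adjusted p = 0.103), and it was called lower in injured VEGFR3iLECko than in Sham irises (-1.03 ± 0.24, edgeR adjusted p = 0.00576).

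The related ADAM proteases, which shed membrane proteins, had 7 of 9 tested genes higher and 1 lower, beside 22.1% and 17.5% of all genes. Adam8 and Adam12 rose most (log2 fold changes 6.33 ± 0.42 and 5.83 ± 0.62), and Adam28 fell (-1.89 ± 0.45). ADAMTS-like genes, which lack the protease domain, had 3 of 6 higher and 2 lower, led by Adamtsl3 (5.13 ± 0.44) and Adamtsl2 (1.74 ± 0.34) and by Papln (-2.48 ± 0.28) and Adamtsl5 (-0.61 ± 0.18). All 3 tested genes of the tolloid list, which holds procollagen C-proteinases and their enhancer, were higher, among them Bmp1 (2.22 ± 0.22) and Tll1 (1.46 ± 0.24).

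Of 12 tested matrix substrates 9 were higher and 1 lower with injury, beside 22.1% and 17.5% of all genes. Comp rose from 2.92 CPM in Sham to 97.5 CPM in injured VEGFR3fl/fl irises in the group means (log2 fold change 5.06 ± 1.18, edgeR adjusted p = 0.00495). In injured VEGFR3iLECko irises Comp averaged 8.45 CPM and was not called against Sham (1.53 ± 1.18, edgeR adjusted p = 0.3). The difference between the injured groups was also not called (-3.53 ± 1.06, edgeR adjusted p = 0.102). Acan, the proteoglycan aggrecan, went from 0.0185 to 8.29 CPM in the group means, a ratio of pooled counts of 446 (95% interval 79.7 to 17664 for counting error). Col2a1 fell by 1.90 on the log2 scale.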

How the data were processed

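Estimated counts per gene were deposited for each of the 9 libraries as whole and fractional numbers. Per the labels and the study's methods, poly(A) libraries were sequenced as single 50-base reads, aligned with HISAT2 2.0.4 and Bowtie2 2.2.5 to mm10, and compared by the authors with DESeq2 1.4.5. Strand use in counting is not given in the sources used here. Here the deposited expected counts were rounded, filtered with filterByExpr (15010 of 18349 genes kept) and fitted in 1 model of 3 groups with edgeR 4.0.16 (glmQLFit, glmQLFTest, TMM), with R 4.3.3; DESeq2 1.42.0 served as an alternative. The authors' combined table was not used. Approximate TPM used GENCODE transcript lengths (96.7% of genes). The members and lists were chosen with earlier results of these data known. One gene of the list of other inhibitors is not reported here, and the counts for that list leave it out. Named members were the 4 TIMPs, those with the largest called changes (up to 12 per direction, with at least 1 CPM), the 3 with the smallest p between injured groups, and others by class. The same replicate numbers did not pair libraries across groups (correlations of deviations -0.35 to 0.18 in 9 pairs). Chi-square per degree of freedom between replicates was 5.13 to 76.2, so no libraries were duplicates. Libraries pool animals, and p-values measure the spread between pools. On simulated counts for injured VEGFR3fl/fl against Sham (15010 genes), 169 of 200 genes changed 3-fold were recovered, with 6 false calls. Intervals and limits of 3 counts cover counting error only.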

Additional observations from a re-analysis of the deposited data

How the results depend on the processing

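Injury counts moved little: 25 or 26 members higher and 3 to 6 lower under every alternative run. Between injured groups, DESeq2 gave 1 member higher, leaving out single libraries gave 0 to 2 higher (2 without injured VEGFR3fl/fl replicate 2), and omitting injured VEGFR3fl/fl replicate 1 with injured VEGFR3iLECko replicate 3 (chosen after seeing the data) gave 1 lower. Against Sham, injured VEGFR3iLECko had 22 to 26 higher (22 with the Y-linked covariate), and 1 lower with approximate TPM of at least 2 and 4 without a fold threshold. Among the single-member values followed, reversed log2 fold changes were those of members that did not pass the test in the main fit. For Adamts20 with injury they were 0.0033 (only the 6 libraries compared), 0.12 (Y-linked covariate) and -0.39 to 0.22 with single libraries left out, and for Adamts19 with injury -0.38 (without injured VEGFR3fl/fl replicate 2) to 0.56. Between injured groups they were -0.079 for Timp1 (the pair of libraries omitted, up to 0.50 with single libraries left out) and, for Mmp3, 0.72 (Y-linked covariate) and -3.80 to 1.01 with single libraries left out, the latter without injured VEGFR3fl/fl replicate 1. Of the other single-member values followed, 975 kept direction and call, 12 gained a call and 4 lost one. These values covered every tested member with injury but only some members in the other comparisons. Outside them, Mmp9 between injured groups turned from 0.39 to -0.74 with the pair omitted and was called lower (edgeR adjusted p = 0.0426). Against Sham, Mmp24 gained a lower call in some settings, among them library size alone (-0.67, edgeR adjusted p = 0.00376). Adamts5 lost its call there with the Y-linked covariate. Without Sham replicate 3, Mmp27 and Mmp9 had injury changes of 9.30 and 8.90, since few Sham counts remained. Scaling by library size alone moved the median of all genes to -0.16 with injury, with 2783 genes higher and 3523 lower against 3323 and 2630. The replicate numbers did not pair the libraries (6 of 18 best matches were to the same number), and the replicate block added 1 injury call, Adamts16 (-1.05, adjusted p = 0.0379). The cause of these shifts was not tested. Median transcript length moved the summed TPM of MMPs to 734, 3136 and 3443, of ADAMTS to 314, 361 and 435 and of TIMPs to 1549.5, 1583 and 1788. Counts under about 10 limit Mmp8, Mmp9, Mmp25 and Mmp27 in every Sham library. In some Sham libraries they also limit others, among them Mmp3 (4, 11 and 9 counts) and Adamts17 (13, 7 and 9 counts). The 7 untested members are limited in the same way, apart from 1 library each of Mmp10 (152 counts) and Timp4 (15 counts). DESeq2 gave no adjusted p for Mmp3.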
